A study of Mus musculus with 6 samples.

Results

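Expression of 6 genes that carry or shape Wnt signals was followed in mouse retina: the Frizzled receptor genes Fzd5 and Fzd7, the ligand genes Wnt6 and Wnt10a, the sulfatase gene Sulf1 and the kinesin gene Kif26b. They were picked by name and are 6 of the 1140 complete rows of the analysed table, all on chromosome 1. Retinas of C57BL/6 mouse embryos at E15.5 were pooled by 8 per library, with 3 libraries per genotype. The control group was T2fx/+, written Tbr2-f/+ in the series title and counted as wild type there. The other group was T2Isl1/+, with Isl1 knocked in at the Tbr2 (Eomes) locus, so both groups carried a named Tbr2 allele in heterozygous form. In a knock-in of this kind Isl1 is made where Tbr2 is active, which in the retina is a subset of neurons, while the libraries hold RNA of the whole tissue. The question was which of these genes differed between the genotypes.

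Wnt proteins are lipid-modified secreted ligands. They bind Frizzled receptors and co-receptors at the cell surface, and either stabilise beta-catenin for transcription with TCF/LEF factors or act on cell polarity and movement through routes such as Wnt5a-Ror. Heparan sulfate chains on the cell surface hold Wnt proteins, and the pattern of sulfate groups on the chains sets how tightly. In the developing eye, Wnt signals act on the optic cup, the ciliary margin, the pigment epithelium and the vessels, and Fzd5 is a well-known receptor gene of retinal progenitors.

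Each group had been reduced by the authors to 1 value per gene in FPKM (fragments counted relative to transcript length and to the total mapped). FPKM is scaled by transcript length, so levels of different genes can be set side by side. Values per library were not analysed here. No spread between replicates could be given for any value, and library depth is unknown. A gene was counted as called when the q-value in the authors' deposited table was under 0.05. Of the 5 retina marker genes with a row (23 were listed), all were tested and 0 were called. Their log2 ratios of T2Isl1 over T2fx were -0.32 for Tfap2b, -0.20 for Cntn2, -0.11 for Crb1, 0.02 for Glul and 0.12 for Hes6 in the authors' deposited table, a median of -0.11, and Tfap2b had an unadjusted p of 0.008. Isl1 and Eomes were not analysed here.

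The 250 bases before the transcription start are shown for 3 of the genes: Fzd5, the most abundant of the 6, Wnt6, one of the least abundant, and Kif26b, which had the smallest p-value. The sequences are from RefSeq on build GRCm38.p6 (mm10), each 5′ to 3′ on the strand of its gene. Capitals mark the homeodomain core TAAT and the TCF/LEF motif CTTTGNN, where each N is A or T, on either strand, so a TAAT on the other strand reads ATTA. No match to one of these motifs overlapped a match to the other. Fzd5 lies at chr1:64737751-64738000 on the minus strand, Wnt6 at chr1:74771642-74771891 on the plus strand and Kif26b at chr1:178528875-178529124 on the plus strand.
Fzd5: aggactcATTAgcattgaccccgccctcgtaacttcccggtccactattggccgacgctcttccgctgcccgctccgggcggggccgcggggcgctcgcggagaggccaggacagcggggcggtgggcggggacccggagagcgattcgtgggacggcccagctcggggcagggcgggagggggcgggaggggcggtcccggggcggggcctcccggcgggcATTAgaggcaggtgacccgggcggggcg
Wnt6: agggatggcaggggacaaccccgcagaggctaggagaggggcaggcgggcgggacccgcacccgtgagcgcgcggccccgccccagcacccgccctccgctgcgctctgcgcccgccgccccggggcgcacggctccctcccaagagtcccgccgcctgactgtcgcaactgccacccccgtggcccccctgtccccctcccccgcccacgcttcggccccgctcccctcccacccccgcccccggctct
Kif26b: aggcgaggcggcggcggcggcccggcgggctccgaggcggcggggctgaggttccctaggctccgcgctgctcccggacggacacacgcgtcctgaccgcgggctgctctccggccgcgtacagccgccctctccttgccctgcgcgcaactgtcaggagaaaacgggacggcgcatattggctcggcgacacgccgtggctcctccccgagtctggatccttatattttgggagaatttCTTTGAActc

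RefSeq promoter entries were found for 4 of the 6 genes, Fzd5, Fzd7, Wnt6 and Kif26b, and not for Wnt10a and Sulf1. The Fzd5 window held 2 matches to TAAT, at 243 to 240 and 28 to 25 bases before the start, both on the other strand. TAAT, the core bound by homeodomain proteins such as Isl1, occurred in 54.9% of all 32851 promoter windows of this length. The Kif26b window held CTTTGAA on its own strand, 10 to 4 bases before the start, and the Fzd7 window held CTTTGTT on the other strand, 130 to 124 bases before it. The TCF/LEF motif occurred in 14.8% of all windows. The Wnt6 window held neither motif. It was nonetheless the most GC-rich of the 4, with 79.6% G or C and 28 CpG dinucleotides, beside 76.4% and 32 for Fzd5, 68.4% and 32 for Kif26b and 65.2% and 17 for Fzd7. All 4 stood above the median window, which had 52.4% G or C and 6 CpG. The abundant Fzd5 and the nearly silent Wnt6 thus had similar base composition before their starts. The GC box GGGCGG, on either strand, was present 9 times before Fzd5, 6 times before Fzd7 and before Wnt6, and 1 time before Kif26b, and was found in 32.7% of all windows. A pair of the Fzd7 matches share a base. The deposited Kif26b locus starts 1163 bases before this RefSeq start, so the window printed for Kif26b lies inside the locus as the authors drew it.

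None of the 4 tested genes was called, in either direction, beside 1.55% of the 646 tested rows. In both genotypes the order of levels was Fzd5, Fzd7, Kif26b and Sulf1, with the ligands lowest. Sulf1 and Kif26b were lower in T2Isl1 at an unadjusted p-value under 0.05, as were 2.63% of tested rows. Fzd5 and Fzd7 differed by less than 10% between the genotypes. Wnt6 and Wnt10a were not tested by the authors. In bulk tissue, fewer cells of a type and less RNA per cell cannot be told apart. With single group values, no statement can be made on whether neighbours in the order of levels differ beyond replicate spread.

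**Figure D1:**
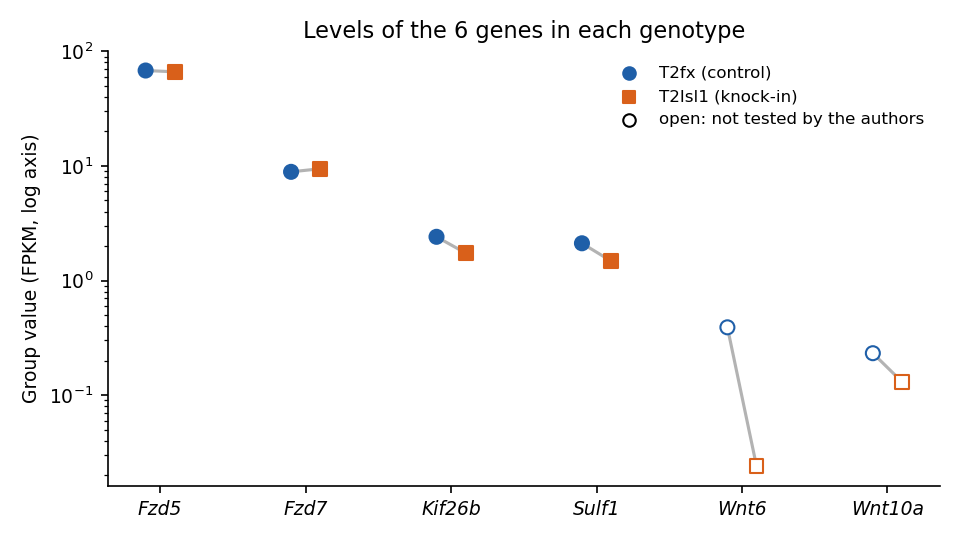
Group values of the 6 genes in FPKM on a log axis, T2fx as circles and T2Isl1 as squares, joined by a line; open symbols mark genes the authors did not test. Each symbol is 1 combined value of 3 libraries with no error bar, and the receptors lie near 67 and 9 FPKM while Wnt6 spans 0.390 to 0.0241 FPKM.

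The receptor gene Fzd5 (chromosome 1, 64730558 to 64737750, minus strand, mm10, protein-coding) was the most abundant of the set. In the authors' deposited table it had 68.0 FPKM in T2fx and 66.2 FPKM in T2Isl1. The knock-in value was thus 2.57% below control, a log2 ratio of -0.04 in the authors' deposited table (p = 0.744, q = 1.00). This level put Fzd5 at rank 52 of 646 tested rows in T2fx and rank 51 in T2Isl1. The opposite-strand gene Gm38058 overlaps Fzd5, and their reads cannot be told apart where counting ignores strand, which no source used here states.

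Fzd7 (59482147 to 59486955, plus strand, mm10, protein-coding), a broadly expressed Frizzled receptor gene known from stem and progenitor cells, was present at a lower level. In the authors' deposited table it had 8.88 FPKM in T2fx and 9.45 FPKM in T2Isl1. The knock-in value was 6.41% above control, a log2 ratio of 0.09 in the authors' deposited table (p = 0.455, q = 1.00). Fzd7 stood at rank 359 of the tested rows in T2fx and 349 in T2Isl1, close to the middle. Fzd5 exceeded Fzd7 by 7.66-fold in T2fx and 7.01-fold in T2Isl1, so the balance of these receptors was similar in both genotypes. Of the 10 Frizzled genes, these are the 2 analysed here, and together they summed to 76.9 FPKM in T2fx and 75.7 FPKM in T2Isl1.

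The ligand genes Wnt6 and Wnt10a were barely detected. Wnt6 (74771892 to 74785319, plus strand, mm10, protein-coding), a ligand gene known from epithelia such as the surface ectoderm, had 0.390 FPKM in T2fx and 0.0241 FPKM in T2Isl1 in the authors' deposited table. Wnt10a (74792019 to 74804175, plus strand, mm10, protein-coding), a ligand gene known from teeth, hair and skin, had 0.232 FPKM in T2fx and 0.131 FPKM in T2Isl1 in the authors' deposited table. Both values were lower in the knock-in, with Wnt6 above Wnt10a in T2fx and below it in T2Isl1. With single values near 0 and no replicate spread, this order cannot be judged. The genes are neighbours in the same orientation, separated by 6.70 kb. The authors tested neither, a status that Cuffdiff gives to genes with too few aligned fragments, and the highest value among their 494 untested rows was 0.516 FPKM.

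The deposited log2 ratio of Wnt6 was -4.02, a 16.2-fold difference between values that are both close to 0. With 0.1 FPKM added to each group value it was -1.98, and with 1 FPKM added it was -0.44. For Wnt10a the deposited log2 ratio was -0.83, and -0.12 with 1 FPKM added. Large ratios were common among untested rows, though less so among those with at least 0.2 FPKM in T2fx. There were 208 untested rows with values above 0 in both groups. Of these, 46 (22.1%) were at or below the ratio of Wnt10a, itself included, and 73 (35.1%) were at least as far from 0. For Wnt6, 2 of the 208 rows were at or below its ratio, itself included, and the median of the 208 rows was -0.15. Of the 208 rows, 52 had at least 0.2 FPKM in T2fx, a bound on the control value alone that neither ligand gene reached in T2Isl1. Among these 52, 5 were at or below the ratio of Wnt10a, itself included, and only Wnt6 was as low as its own ratio. Both ligand genes entered this set through the group where they were higher, so these counts give no support to either ratio. The median absolute log2 ratio was 0.24 for the 52 rows and 0.52 for the 208. Lgr6, a receptor gene for R-spondins, was the 1 gene with a row in the list of co-receptors and receptor turnover. It was likewise untested, with 0.0386 FPKM in T2fx and 0.0217 FPKM in T2Isl1 in the authors' deposited table. Wnt6 is overlapped on the opposite strand by Gm29539. No test bears on these ligand values, so neither gene can be said to differ between the genotypes.

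Beyond the ligand pair, the nearest rows along the chromosome were Prkag3 before Wnt6, at 0.0116 FPKM in T2fx and 0.00529 FPKM in T2Isl1 in the authors' deposited table, and Cdk5r2 after Wnt10a. Cdk5r2, a neuronal activator of the kinase Cdk5, had 22.4 FPKM in T2fx and 23.2 FPKM in T2Isl1 in the authors' deposited table. The low values around the ligands thus gave way to a well-expressed gene 50.9 kb beyond Wnt10a.

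Sulf1 (12692336 to 12861220, plus strand, mm10, protein-coding) encodes a secreted sulfatase that removes 6-O-sulfate groups from heparan sulfate, which loosens the hold of the chains on Wnt proteins. It had 2.11 FPKM in T2fx and 1.48 FPKM in T2Isl1 in the authors' deposited table. The knock-in value was 30.0% below control, a log2 ratio of -0.51 (unadjusted p = 0.0103, q = 0.951 in the authors' deposited table). Its p-value ranked 17 and its log2 ratio 18 from the bottom among 646 tested rows, and it did not pass at the q-value threshold.

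Other genes of heparan sulfate synthesis were near their control values. In that list of 40 genes 4 were tested, of which 0 were called and 3 had a positive log2 ratio. Hs6st1, whose enzyme adds the 6-O-sulfate groups that Sulf1 removes, had 37.2 FPKM in T2fx and 40.2 FPKM in T2Isl1 in the authors' deposited table. The level of Hs6st1 exceeded that of Sulf1 by 17.6-fold in T2fx and 27.1-fold in T2Isl1, a ratio of group values that was not tested. Gpc1, the gene of a glypican that carries heparan sulfate, had 60.0 FPKM in T2fx and 64.0 FPKM in T2Isl1 in the authors' deposited table. Uxs1, which makes the UDP-xylose that starts the chains, had 11.6 FPKM in T2fx and 11.9 FPKM in T2Isl1 in the authors' deposited table. Within this list Sulf1 was both the least abundant tested gene and the only one below its control value.

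Kif26b (178527962 to 178939178, plus strand, mm10, protein-coding) encodes an atypical kinesin that is degraded in response to Wnt5a-Ror signalling and acts on cell adhesion and migration. It had 2.41 FPKM in T2fx and 1.74 FPKM in T2Isl1 in the authors' deposited table. The knock-in value was 27.8% below control, a log2 ratio of -0.47 (unadjusted p = 0.0012, q = 0.178 in the authors' deposited table). Among the rows that were not called, only the collagen gene Col5a2 had a smaller p-value, with p = 0.0003 in the authors' deposited table. Kif26b overlaps Gm16564 on the opposite strand and Gm24405 and Gm34176 on its own strand, so the division of reads between these genes is uncertain.

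The other kinesin genes also lay below their control values, by less. Of 42 listed genes of kinesins and their partners, 5 were tested, 0 were called and all 5 had negative log2 ratios, beside 293 of all 646 tested rows. The mitotic kinesin gene Kif14 had a log2 ratio of -0.18, the axonal transport gene Kif1a -0.17, the neuronal kinesin gene Kif21b -0.15 and the kinesin-2 adaptor gene Kifap3 -0.04 in the authors' deposited table. These 4 genes ran from 3.45 FPKM for Kif14 to 48.8 FPKM for Kif1a in T2fx in the authors' deposited table, so Kif26b was the least abundant of the 5. Their smallest unadjusted p-value was 0.142 for Kif1a in the authors' deposited table. Rows with long transcripts were mostly below control. Among the 50 tested rows nearest to Kif26b in transcript length, 8943 to 15731 bases, the share was 78.0%. The longest transcripts of Kif14 and Kif21b, 8943 and 9254 bases, are in that range, while Kif1a has 8206 and Kifap3 4012 bases. The part of transcript length in the kinesin values was not tested.

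**Figure D2:**
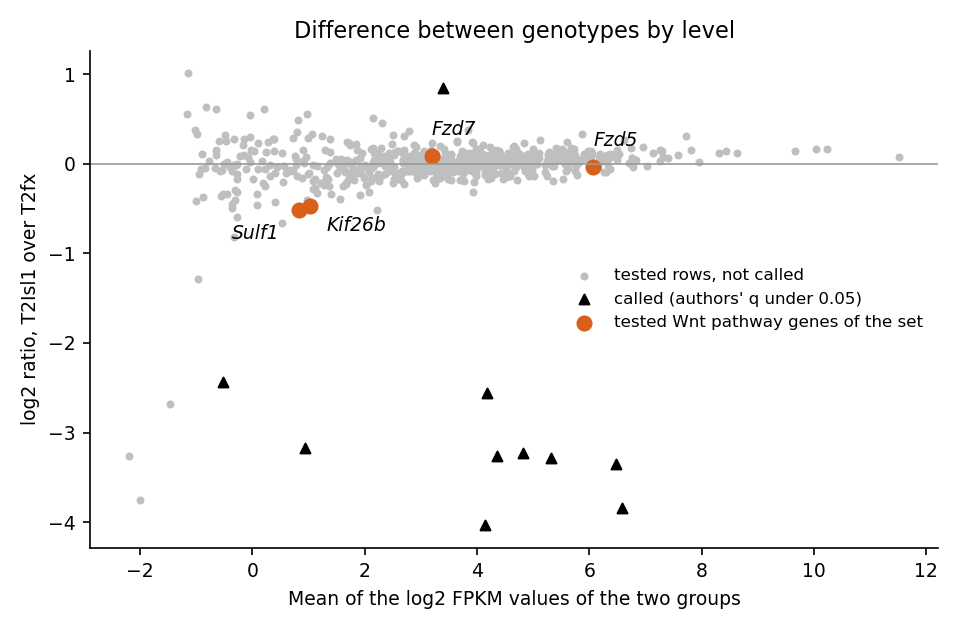
Log2 ratio of T2Isl1 over T2fx against the mean log2 FPKM of both groups for the 646 rows the authors tested, with called rows as triangles and the 4 tested genes of the set as large circles. Fzd5 and Fzd7 lie near the zero line at -0.04 and 0.09, and Sulf1 and Kif26b lie together at -0.51 and -0.47, below most rows of similar level and far above the called rows that fell.

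Sulf1 and Kif26b were close in level and in ratio. Of 137 tested rows with 1 to 5 FPKM in T2fx, a range set after seeing the values, 6 had a log2 ratio at or below that of Kif26b, with both genes among the 6. The median log2 ratio of these 137 rows was -0.04 and 60.6% of them were below control. By distance over the log2 values of both groups, the tested gene nearest to each of them was 2900009J06Rik, with 2.26 FPKM in T2fx and 1.71 FPKM in T2Isl1 in the authors' deposited table. That gene had an unadjusted p of 0.846 in the authors' deposited table, beside 0.0012 for Kif26b, although its ratio was nearly as low. The second nearest were Tuba4a for Sulf1 and F11r for Kif26b. For Fzd5 the nearest were Arl8a and Cox20, and for Fzd7 they were Ccdc181 and the pathway gene Klhl12. For the ligands the nearest tested genes were Twist2 and Chil1 for Wnt6 and Twist2 and Tnni1 for Wnt10a, at distances of 1.74 or more on the log2 scale. Rows as low as the ligands are mostly untested, so these distances follow from their level. With 2 group values per gene, these distances describe level and ratio only.

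Transcript length moved with the ratios. Kif26b has a longest annotated transcript of 13749 bases, longer than all but 0.982% of the tested rows with a length, and Sulf1 has one of 5598 bases. Among the 50 tested rows nearest to Kif26b in transcript length, 78.0% were below control and the median log2 ratio was -0.09. Among the 50 nearest to Sulf1, 54.0% were below control and the median was -0.01. Taken relative to these medians, Kif26b was at -0.38 and Sulf1 at -0.50 on the log2 scale, and 1 of 50 neighbours of each was as low. Fzd5, with a transcript of 6915 bases and neighbours at a median of -0.08, went from -0.04 to 0.046 and so changed sign, while Fzd7 went from 0.09 to 0.10. The part of transcript length in the values of Sulf1 and Kif26b was tested no further.

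**Figure D3:**
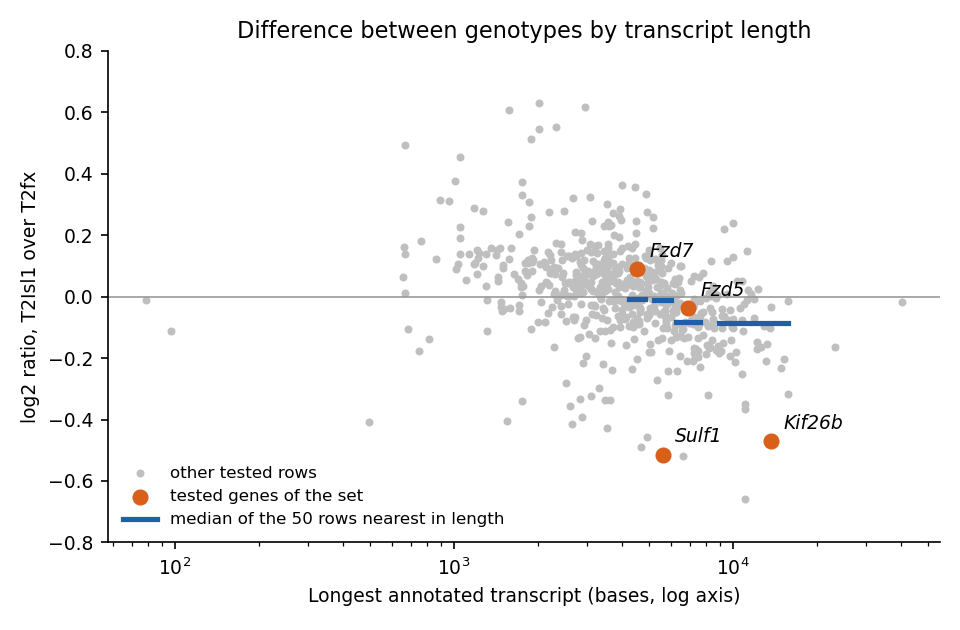
Log2 ratio of T2Isl1 over T2fx against the longest annotated transcript in bases on a log axis, for 596 tested rows; 15 rows beyond 0.8 in either direction are not drawn. Blue bars give the median of the 50 rows nearest in length to each large circle over the range of their lengths, and Sulf1 and Kif26b lie below their bars by 0.50 and 0.38 while Fzd5 and Fzd7 lie slightly above theirs.

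Lens genes fell in the same comparison, and most tested genes of the mesenchyme and skeletal muscle lists were also below control. All 7 tested genes of the lens list (25 listed, 8 with a row) were called lower, and the list summed to 1038 FPKM in T2fx and 93.6 FPKM in T2Isl1, with Lgsn listed at 0 in both. Of the mesenchyme and vessel list (22 listed, 9 with a row), 1 of 7 tested genes, Col3a1, was called lower, 6 of 7 were below control, and the sum was 39.7 FPKM in T2fx and 30.2 FPKM in T2Isl1. Twist2, a mesenchymal transcription factor gene, had 0.677 FPKM in T2fx and 0.0703 FPKM in T2Isl1 in the authors' deposited table. Col5a2, a fibrillar collagen gene, had a log2 ratio of -0.52 in the authors' deposited table, next to -0.51 for Sulf1 and -0.47 for Kif26b. The remaining tested genes of the list differed less, with -0.34 for Prelp, -0.17 for Fn1 (unadjusted p = 0.176), -0.07 for the pericyte gene Rgs5 and 0.04 for Cd34 in the authors' deposited table. Of the skeletal muscle list (16 listed, 8 with a row), 1 of 3 tested genes, Chrng, was called lower, the sum was 3.92 FPKM in T2fx and 1.15 FPKM in T2Isl1, and Chrnd was listed at 0 in both. For the surface ectoderm and cornea list only Serpinb5 had a row, at 0.0175 FPKM in T2fx and 0.0200 FPKM in T2Isl1 in the authors' deposited table, so this tissue could hardly be followed. The part of such tissue in the lower values of Sulf1, Kif26b, Wnt6 and Wnt10a was not tested.

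Other tested genes of the pathway lists were near control. Over all Wnt pathway lists, 182 genes in all, 14 had a row and 11 were tested, with 0 called higher and 0 called lower. Their median log2 ratio was 0.03, beside 0.01 for all tested rows. Without the 6 genes described above, 7 were tested, 6 with a positive log2 ratio, and the 7 ran from -0.01 to 0.15. The beta-catenin list had 4 of these. Klhl12, an adaptor that brings Dishevelled to a ubiquitin ligase, had 8.59 FPKM in T2fx and 9.54 FPKM in T2Isl1 in the authors' deposited table. Cul3, the scaffold of that ligase, had 47.7 FPKM in T2fx and 47.4 FPKM in T2Isl1 in the authors' deposited table. Cdc73, a subunit of the PAF complex that binds beta-catenin, had 25.2 FPKM in T2fx and 25.4 FPKM in T2Isl1 in the authors' deposited table. Sox17, an HMG-box factor gene of endoderm and endothelium, was low, at 0.922 FPKM in T2fx and 0.971 FPKM in T2Isl1 in the authors' deposited table. Most of the pathway, including the co-receptors Lrp5 and Lrp6, the secreted Wnt inhibitors and the TCF/LEF factors, was not analysed here.

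**Figure D4:**
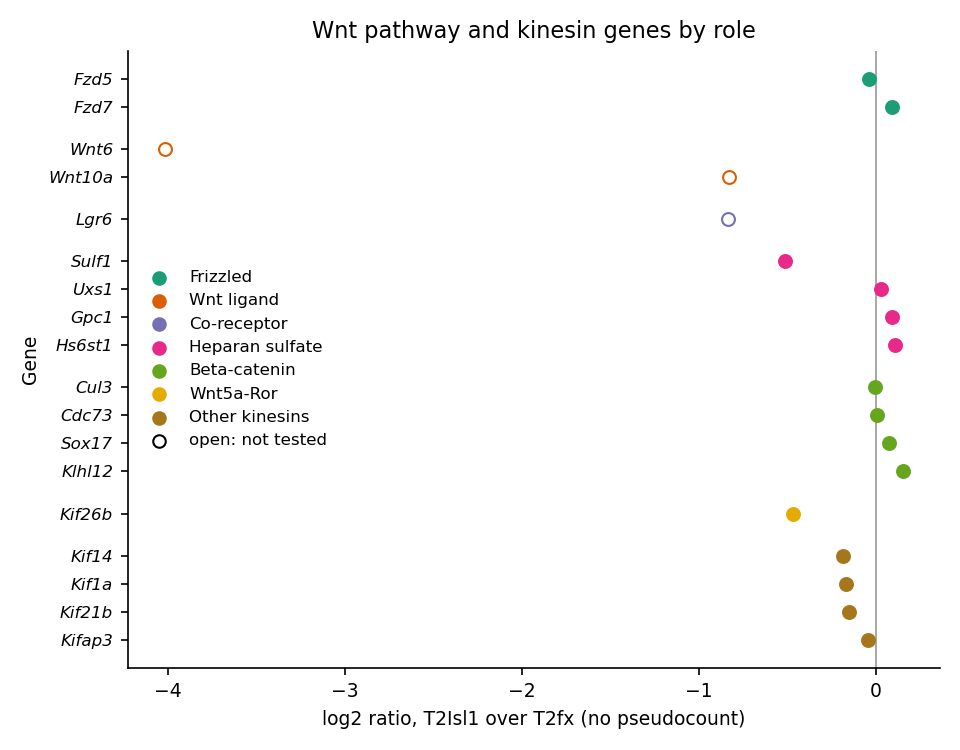
Log2 ratio of T2Isl1 over T2fx, without a pseudocount, for each Wnt pathway or kinesin gene with a row, coloured by role; open circles were not tested by the authors. Sulf1 at -0.51 and Kif26b at -0.47 are the lowest tested genes, the other tested pathway genes lie between -0.04 and 0.15, and Wnt6 at -4.02 is the lowest untested gene.

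The tested rows that flank the receptor, sulfatase and kinesin genes were not called. Next to Sulf1, 5.33 kb beyond its end, the transporter gene Slco5a1 had 6.58 FPKM in T2fx and 6.23 FPKM in T2Isl1 in the authors' deposited table. Next to Kif26b, Efcab2 had 3.45 FPKM in T2fx and 3.85 FPKM in T2Isl1 in the authors' deposited table, and Cnst, 589 kb on the other side, had 14.5 FPKM in T2fx and 14.4 FPKM in T2Isl1 in the authors' deposited table. Next to Fzd5, Ccnyl1 had a log2 ratio of 0.17 and Plekhm3 one of -0.10 in the authors' deposited table. The tested neighbour of Fzd7, Gm973, had a log2 ratio of -0.02 in the authors' deposited table. On its other side Cdk15 was untested, with 0.0932 FPKM in T2fx and 0.0324 FPKM in T2Isl1 in the authors' deposited table. Gm17644, before Sulf1, was also untested, with 0.504 FPKM in T2fx and 0.516 FPKM in T2Isl1 in the authors' deposited table. Of the rows beside Sulf1, only Slco5a1 was tested. Minus-strand rows were analysed only up to position 156719102, before Kif26b, so genes of that strand around Kif26b were not followed. Within these limits, the lower values of Sulf1 and Kif26b had no counterpart of like size in the tested rows beside them.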

How the data were processed

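RNA of 6 libraries of pooled E15.5 mouse retina was sequenced on Illumina instruments, 3 per genotype, and groups were taken from the sample titles. CASAVA, TopHat2 2.1.1, Cufflinks 2.1.1 and build mm10 are named in the submitters' processing notes, without roles; the gene annotation is stated in no source used here. What was deposited has a Cuffdiff layout with 1 FPKM value per gene and group, a unit inferred from that layout. The authors' log2 fold change (knock-in over control, no pseudocount), test score, p-value and q-value stand beside it, per the file headers. The score was not used.

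The rows analysed cover chromosome 1 in part: 1140 complete rows, of which the authors tested 646, and 1 incomplete row was left out. Minus-strand rows were analysed only up to position 156719102. No new test of any gene was made. A call is a q-value under 0.05. Labels do not say whether pools shared litters. Transcript lengths and overlaps came from GENCODE M21, on the same build, with a length for 94.6% of tested rows. Motifs were searched in the RefSeq windows on both strands. Starts were converted to count from 1. Named genes were the 6 members, each tested gene of the pathway and kinesin lists, the 2 tested genes nearest to each member over the log2 group values, and the adjacent rows; others are named where their values touch a result. The members and lists were chosen with earlier results of these data known. Alternatives were pseudocounts of 0.1 and 1, centring, a transcript length correction, other thresholds and floors. The code for p-value adjustment, medians by transcript length and motif search was tested on simulated data. Python 3.11.15, pandas 2.3.3, numpy 2.4.6 and matplotlib 3.10.9 were used.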

Additional observations from a re-analysis of the deposited data

How the results depend on the processing

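Of 52 alternative settings, 46 left the counts of calls equal or moved the unlogged ratio by less than 1.5-fold without a change of sign. Among these, a pseudocount of 1 moved the log2 ratio of Sulf1 from -0.51 to -0.33, and a pseudocount of 0.1 moved that of Wnt10a from -0.83 to -0.53. At an unadjusted p-value under 0.05, 2 of the 4 tested genes were lower, Sulf1 and Kif26b, beside 17 of the 646 tested rows (2.63%). These were also the 2 lower genes among the 11 tested genes of all Wnt pathway lists, where the main count was 0. When p-values were adjusted by Benjamini-Hochberg over just the 646 rows, Kif26b had an adjusted p of 0.0646 and Sulf1 of 0.39, and neither was called. By that adjustment 11 of the 646 rows were called. Stricter q-values, floors of 1 and 5 FPKM and the removal of joined names could not add calls to counts of 0. Centring moved every log2 ratio by the same 0.01. These settings are among the 46, and their outcome was fixed in advance, so they say nothing on stability. With a minimum of 1.5-fold and no p-value, 0 of the 4 tested genes passed, beside 21 of the 646 tested rows. The log2 ratio of Wnt6 went from -4.02 to -1.98 with a pseudocount of 0.1 and to -0.44 with a pseudocount of 1, and that of Wnt10a from -0.83 to -0.12 with a pseudocount of 1. Relative to rows of like transcript length, Fzd5 went from -0.04 to 0.046, a change of sign in a gene that was not called. Depth per library is unknown, so the lowest level at which a difference could be seen cannot be given. No paired analysis was possible because the analysed table gives a single value for each genotype and values per library were not analysed here.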
